A study of Mus musculus with 15 samples.

Results

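*Gli1*, *Gli2*, *Gli3*, *Smo* and *Sufu* form the intracellular core of the Sonic hedgehog (SHH) pathway. These 5 genes were followed by name, out of 27803 genes with a row in the Drop-seq count tables, through 5 normal mouse cerebella and 10 medulloblastomas. All 5 were counted in every animal. In these tumors *Gli1* was higher than in normal granule neuron progenitors. With vismodegib, none of the 5 passed the test in the tumor cells, although *Gli1* was called lower with a tumor set block in CGNP-like cells and with set or serial number blocks in all cells, and *Gli3* higher in some other alternatives. The tumor sets were found in these same data, and the split by serial numbers nearly matches them. Calls with either block are therefore not read as support. Within Node A-like and B-like cells no alternative called *Gli1*. The pathway's feedback genes *Hhip* and *Ptch1* fell.

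In cerebellar granule neuron progenitors (CGNPs), SHH from Purkinje neurons binds the receptor Ptch1 and relieves the block that Ptch1 places on Smo, a membrane protein. Active Smo acts through the primary cilium to release the Gli transcription factors from Sufu, a cytoplasmic inhibitor. Gli2 is mainly the activator, Gli3 is mainly processed to a repressor, and *Gli1* is both a target of the pathway and an activator that amplifies it. Vismodegib binds Smo and inhibits it. The SmoM2 protein is a mutant Smo that is active without ligand.

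The normal tissue was the cerebellum of untreated wild-type (WT) C57BL/6 mice at postnatal day (P) 7. The tumors arose in M-Smo mice, labelled C57BL/6 with the genotype Math1-Cre:SmoM2/EYFP loxP/loxP, in which the *Atoh1* (*Math1*) promoter drives Cre and Cre switches on an SmoM2 protein joined to EYFP. Of the M-Smo mice, 5 received vehicle and 5 received vismodegib at 75 mg/kg in 3 daily injections from P12 to P14, and their tumors were taken at P15. SmoM2 is a form of the drug's own target and all 10 tumors carried it, so both tumor groups had the active allele. Tumor and WT samples differed in genotype, age and microfluidic device together, and these cannot be told apart.

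After filtering, the WT group held 7224 cells (805 to 2086 per animal), the vehicle group 18293 (1648 to 8103) and the vismodegib group 12429 (834 to 4162). Before filtering, the libraries held between 2310474 and 17708677 unique molecular identifiers (UMIs, each a counted RNA molecule). In the kept cells, median UMIs per cell ranged from 1082.5 to 2597 over the animals. At most 13 cell barcodes were shared by any pair of the 15 libraries. Clusters were rebuilt from the counts and named from marker lists, with the 5 genes, the wider Hedgehog list and the transgenes left out of clustering and naming. Cells of the CGNP lineage (CGNP-like) fell into 4 classes that follow the node names of the study. Node A-like cells were named from genes of proliferation and mitosis (such as *Mki67* and *Top2a*), Node B-like cells from genes of the start of DNA replication (*Mcm2* and *Pcna*), Node C-like cells from genes of early neuronal differentiation (*Cntn2* and *Nhlh1*) and Node D-like cells from genes of later differentiation (*Grin2b* and *Rbfox3*).

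The rebuilt classes are approximate. None of the tumor clusters called Node B-like had a listed marker among its 10 leading genes. The largest vehicle cluster called Node D-like (number 8) scored higher on the Node C-like than on the Node D-like list. WT and tumor cells were clustered apart, and in 3 classes the largest cluster differed between the 2 treatments, holding 40.7% to 56.6% of the cells of the class: clusters 4 (vehicle) and 9 (vismodegib) in Node A-like, 0 and 1 in Node B-like, and 8 and 5 in Node D-like cells. Of the Node B-like clusters, 0 was led by *Gm17322*, *Ung*, *Rprml*, *Sdpr* and *Wnt4*, and 1 by *Tcf19*, *Ccne2*, *Cdc6*, *Tyms* and *Hells*. WT cells differed from tumor cells too. The largest WT cluster called Node A-like was led by *Ube2c*, *Cdc20*, *Tuba1c*, *Cenpf* and *Ccnb1*. That of vehicle tumors was led by *Hist1h2ak*, *Esco2*, *Nusap1*, *H2afx* and *Aurkb*. The WT cluster called Node B-like was led by *Ung*, *Mcm3*, *Cdca7*, *Cdc6* and *Mcm6*. Comparisons of treatments, and of tumors with WT, within a class can thus set unlike mixes of cells side by side.

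On the GRCm38 build, *Gli1* lies on chr10:127329882-127341974 (minus strand) and overlaps *Arhgap9* on the opposite strand. *Gli3* likewise overlaps *Gm6556* on the opposite strand, and both of these neighbours have their own rows. How reads in these overlaps were assigned was not tested. *Gli2* lies on chr1:118834132-119053619 (minus strand), *Gli3* on chr13:15463235-15730026 (plus strand), *Smo* on chr6:29735503-29761365 (plus strand) and *Sufu* on chr19:46396896-46488804 (plus strand). *Smo* shares its strand with the pseudogene *Gm13717*, which has its own row in the tables, and reads there could have been divided between the rows. The letters ACCACCC, the core of the sequence that Gli proteins are known to bind, were searched on both strands of RefSeq promoters (GRCm38.p6), which span 300 bases at each gene start. They were present in 4.61% of all promoters (1514 of 32851). *Gli2*, *Gli3*, *Smo* and *Sufu* had a promoter entry and *Gli1* had none. Of these 4, only that of *Gli2* held the letters, as GGGTGGT on the reverse strand, 205 bases before the start, shown in capitals here because it is the only match among these 4 promoters.
Gli2 promoter, chr1:119053808-119053834, minus strand: tccccctccaGGGTGGTgtccccccac

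Mean levels of *Gli1* and *Gli2* were highest in Node A-like and B-like cells of every group, those of *Gli3* in astrocyte-like cells, and those of *Sufu* in GABAergic cells of WT and Node C-like cells of the tumors. Levels are counts per 1000000 UMIs (CPM) of the summed cells of a class, per animal. Since classes were made from the expression of the same cells, differences between classes are described without a test. The plot of levels by class shows every animal.

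**Figure D1:**
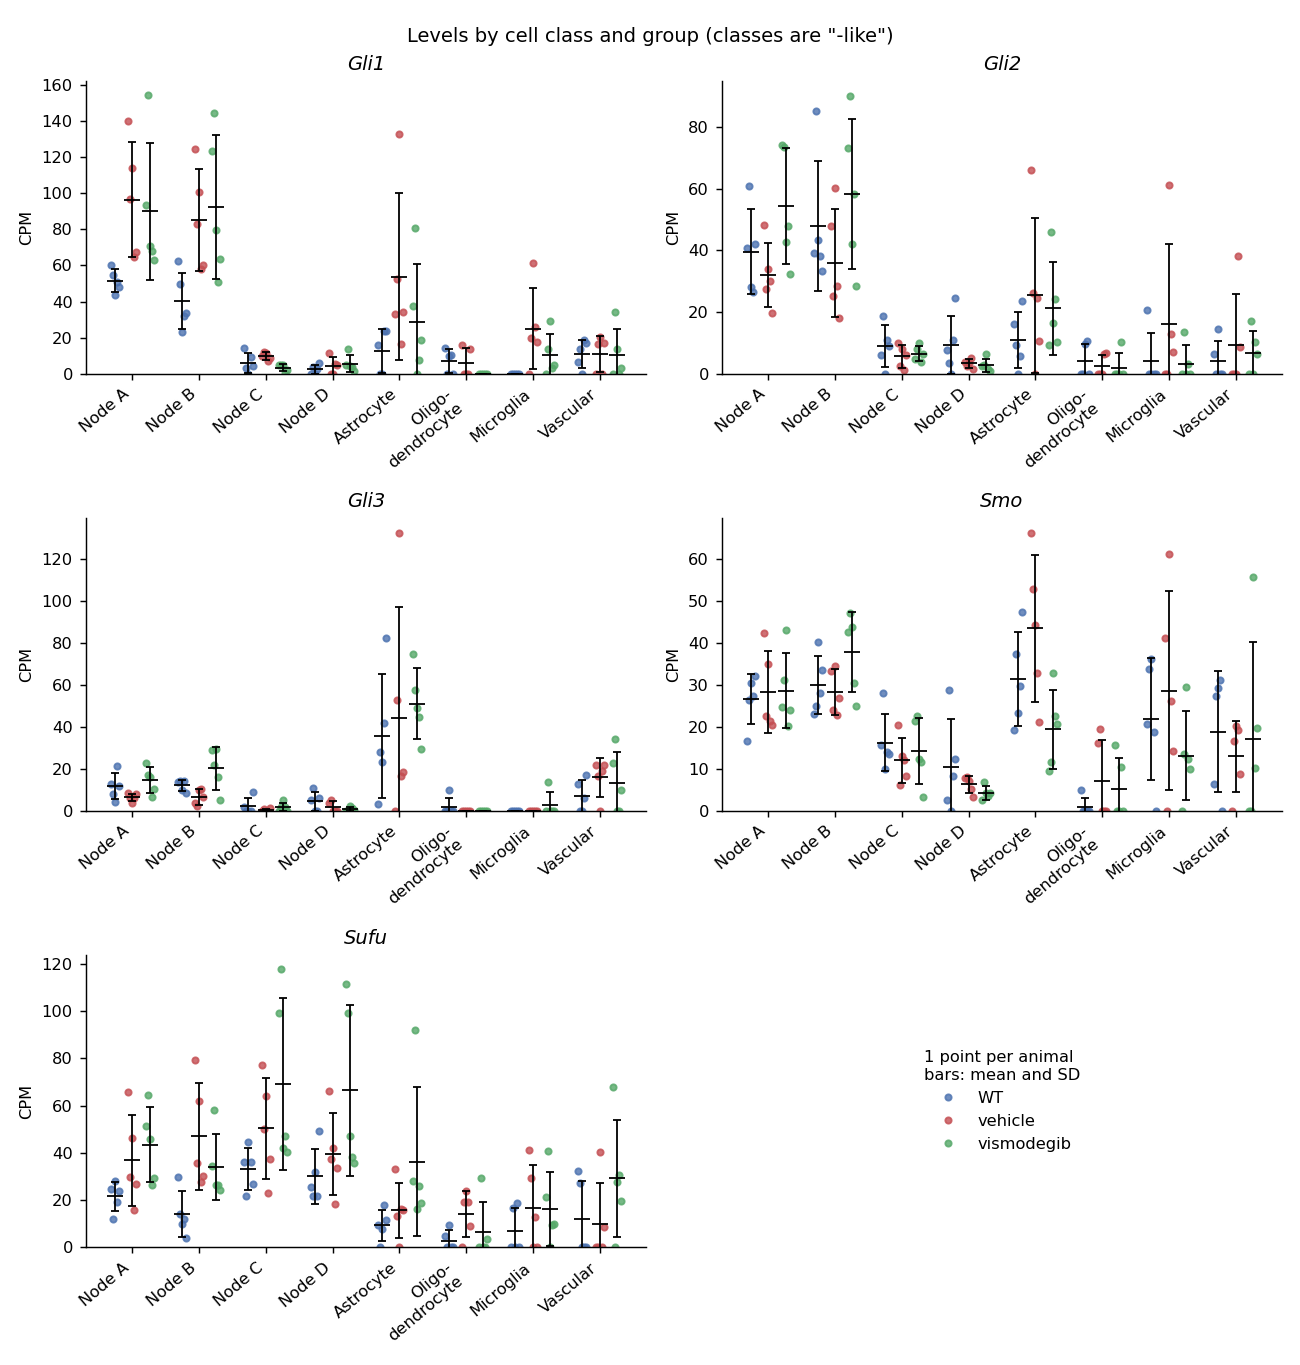
CPM of each of the 5 genes (vertical axis, a separate scale for each gene) in 8 classes, with 1 point per animal for WT (blue), vehicle (red) and vismodegib (green) and bars for the mean and SD of 5 animals. *Gli1* and *Gli2* stood high in Node A-like and B-like cells and low in Node C-like and D-like cells. The mean of *Gli3* was highest in astrocyte-like cells, and *Sufu* remained present in Node C-like and D-like cells.

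*Gli1* had a steep profile along the lineage. From Node A-like to Node D-like cells, its levels in vehicle tumors were 96.4 ± 31.6, 85.2 ± 28.0, 9.997 ± 2.05 and 4.39 ± 4.82 CPM (mean ± SD, n = 5). WT cells had the same order, at 51.5 ± 6.46, 40.1 ± 15.6, 6.21 ± 5.56 and 2.502 ± 2.61 CPM. In vismodegib tumors the levels were 89.8 ± 37.7, 92.3 ± 39.9, 3.46 ± 1.96 and 5.61 ± 4.66 CPM. Node A-like and B-like ranges overlapped in every group. Within animals, Node A-like cells were above Node B-like cells in 4 of 5 WT animals and 5 of 5 vehicle tumors. Among vismodegib tumors, Node B-like cells were the higher in 3 of 5. Node A-like and B-like cells together supplied most *Gli1* UMIs, with Node A-like cells alone giving 61.9% ± 7.23 of them in WT, 41.5% ± 8.16 in vehicle and 46.8% ± 12.3 in vismodegib samples.

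Microglia-like cells, which should lack *Gli1*, were taken as a comparison for its background. They held 10 *Gli1* UMIs in vehicle tumors (24.9 ± 22.4 CPM), 6 in vismodegib tumors (10.2 ± 11.8 CPM) and 0 in WT, where 3 UMIs in all would give 14.9 CPM. Mean *Gli1* levels in Node C-like and D-like tumor cells were below these means, with ranges that overlapped, so no expression is read from them. The part of free RNA in them was not tested. A *Gli1* UMI was found in 5.10% of vehicle microglia-like cells (median UMIs per animal 1341 to 2737.5) and in 21.5% of vehicle Node A-like cells (2122 to 4764). Astrocyte-like cells of vehicle tumors had 53.8 ± 45.9 CPM of *Gli1* from 23 UMIs, and their range overlapped that of microglia-like cells.

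*Gli2* followed *Gli1*. Its levels in Node B-like cells were 47.8 ± 21.1 CPM in WT, 35.9 ± 17.4 in vehicle and 58.4 ± 24.3 in vismodegib samples, and 39.6 ± 13.8, 32.0 ± 10.4 and 54.3 ± 18.8 in Node A-like cells. Node C-like cells had 8.96, 5.69 and 6.58 CPM in the same order of groups, and *Gli2* ranges in Node A-like and B-like cells did not separate. WT GABAergic progenitor-like cells had 21.5 ± 9.21 CPM.

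*Gli3* counts in CGNP-like cells were small, with 89 UMIs in WT, 190 in vehicle and 182 in vismodegib samples. In astrocyte-like cells its level was 35.7 ± 29.6 CPM in WT, 44.1 ± 53.2 in vehicle and 51.1 ± 16.8 in vismodegib samples. The vismodegib tumors had 74.9, 57.5, 49.1, 44.8 and 29.3 CPM in astrocyte-like cells, while the vehicle tumors ran from 0 to 132.7 CPM on 16 UMIs in all. Astrocyte-like cells, 3.14% ± 2.23 of cells in vismodegib tumors, supplied 21.5% ± 13.3 of all *Gli3* UMIs there. WT GABAergic progenitor-like cells followed at 22.4 ± 10.02 CPM. In vehicle tumors vascular-like cells followed at 15.9 ± 9.14 CPM. Astrocyte-like cells were above them in only 2 of 5 vehicle tumors, and the ranges overlapped. No *Gli3* UMI was counted in microglia-like cells of WT and vehicle samples, and 1 was counted in those of the vismodegib samples (2.71 ± 6.07 CPM).

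*Smo* had similar mean levels in several classes. Its level was 26.5 ± 5.97, 28.2 ± 9.77 and 28.6 ± 8.89 CPM in Node A-like cells of WT, vehicle and vismodegib samples, and 29.9 ± 6.92, 28.2 ± 5.4 and 37.7 ± 9.53 CPM in Node B-like cells. Node D-like cells had less, at 10.4 ± 11.4, 6.27 ± 1.96 and 4.23 ± 1.61 CPM. Microglia-like cells had 21.8 ± 14.4, 28.5 ± 23.7 and 13.1 ± 10.6 CPM, from 5, 9 and 11 UMIs, and overlapped the Node A-like range in each group.

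*Sufu* in WT had higher mean levels in Node C-like and D-like than in Node A-like and B-like cells. It was highest in GABAergic progenitor-like (77.1 ± 18.0 CPM) and GABAergic interneuron-like cells (66.9 ± 33.5), and lower in Node C-like (33.0 ± 8.92), Node D-like (30.1 ± 11.6), Node A-like (21.7 ± 6.20) and Node B-like cells (14.1 ± 9.62). Interneuron-like cells exceeded Node C-like cells in 5 of 5 WT animals. In vehicle tumors the 4 node classes lay between 36.9 and 50.4 CPM with overlapping ranges. In vismodegib tumors *Sufu* was 69.4 ± 36.4 CPM in Node C-like cells, with 66.4 ± 36.0 CPM for Node D-like cells, against 43.5 ± 15.8 in Node A-like and 34.0 ± 14.1 in Node B-like cells.

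The SmoM2/EYFP transgene had its own row beside *Smo*. It gave 3 UMIs over all WT cells, 1107 in vehicle and 621 in vismodegib tumors, and averaged 29.7 ± 4.95 CPM in vehicle and 23.7 ± 5.96 CPM in vismodegib tumors. Vehicle tumors had 36.3, 25.6, 33.1, 24.6 and 29.1 CPM over all cells and vismodegib tumors 21.8, 21.7, 33.1, 17.0 and 24.9, with overlapping ranges (log2 fold change -0.37, SE 0.19, edgeR adjusted p 0.219). In CGNP-like cells, SmoM2/EYFP made up 53.4% to 58.3% of the UMIs of the *Smo* and transgene rows together in vehicle tumors and 42.5% to 68.9% in vismodegib tumors. Whether reads from the transgene were also counted in the *Smo* row was not tested. SmoM2/EYFP was counted in oligodendrocyte-like cells at 36.6 ± 19.5 CPM in vehicle and 31.2 ± 32.8 in vismodegib tumors, and these ranges overlapped those of CGNP-like cells. Microglia-like cells had 7.19 and 0.50 CPM, and vascular-like cells 0 and 0.66. The plot of *Smo* beside its transgene sets these classes side by side.

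**Figure D2:**
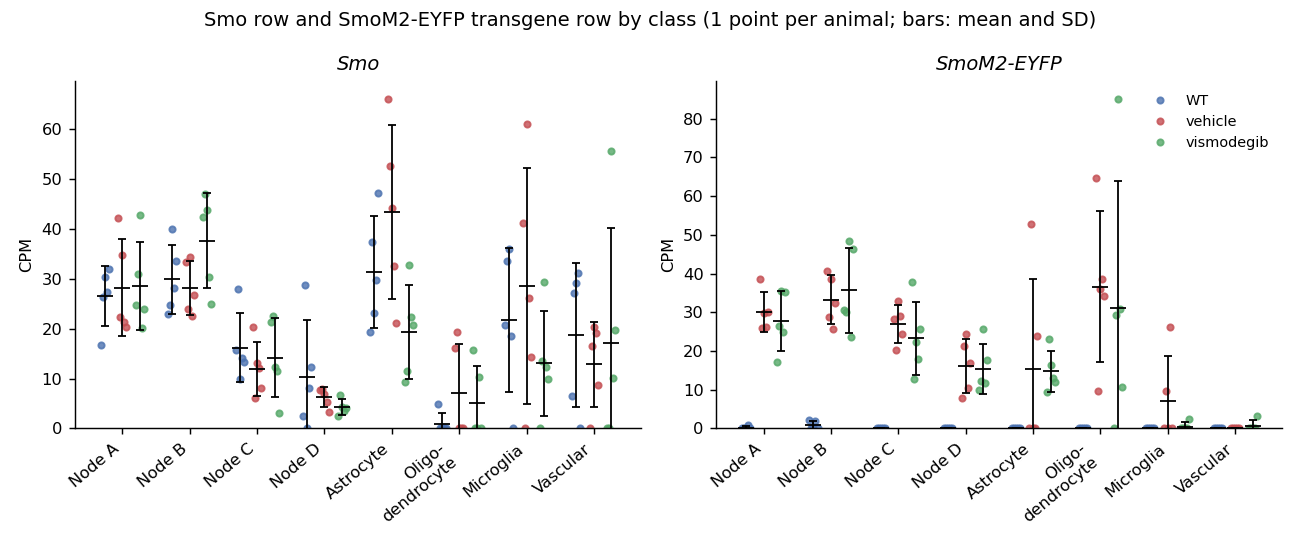
CPM of the *Smo* row (left) and the SmoM2/EYFP row (right) in 8 classes, with 1 point per animal and bars for the mean and SD of 5 animals. SmoM2/EYFP was at or near 0 in WT and in vascular-like cells, and present in oligodendrocyte-like cells of the tumors, while *Smo* was present in nearly all classes of all groups.

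The vehicle tumors were set against WT to ask how these genes differ where SmoM2 drives the pathway. In CGNP-like cells *Gli1* and *Sufu* were higher in vehicle tumors, *Gli3* was lower, and *Gli2* and *Smo* did not pass the test. Counts were summed per animal and tested with edgeR's quasi-likelihood test across all genes, with Benjamini-Hochberg adjusted p-values. The comparison called 44.6% of the 12586 genes tested, so 3 of 5 calls stand against a large background. In all cells together, where fewer cells of a type and less RNA per cell cannot be told apart, it called 48% of genes and 2 of the 5. Within a node class, WT and vehicle cells can be unlike mixes, so differences there are not read as those of a matched stage.

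*Gli1* in CGNP-like cells was 44.0, 31.2, 25.6, 30.7 and 30.2 CPM in the WT animals and 106.8, 71.6, 84.4, 47.7 and 55.5 CPM in the vehicle tumors. The lowest vehicle tumor lay above the highest WT animal. The log2 fold change was 1.06 (SE 0.21, 95% interval 0.61 to 1.498, edgeR adjusted p 0.00077). The rise was also called within Node A-like cells (0.74, SE 0.21, adjusted p 0.00913, background 38.2%) and Node B-like cells (0.89, SE 0.27, adjusted p 0.0154, background 30.8%). These calls held when any animal was left out.

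*Sufu*, which holds Gli proteins back, was 27.8, 16.7, 26.5, 22.3 and 24.02 CPM in WT CGNP-like cells and 75.5, 36.2, 55.3, 22.1 and 29.7 CPM in vehicle tumors. Vehicle replicate 4 lay within the WT range, while replicates 1 and 3 were far above it. Its log2 fold change was 0.78 (SE 0.28, 95% interval 0.17 to 1.38, edgeR adjusted p 0.0365). This call ended without WT replicate 2 (0.68, adjusted p 0.0848), 4 (0.78, 0.0703) or 5 (0.79, 0.0577), and without vehicle replicate 1 (0.55, 0.0925) or 3 (0.68, 0.0765). In Node B-like cells the difference was larger, at 1.45 (SE 0.41, edgeR adjusted p 0.0102), and was called in every alternative (adjusted p 5.28e-06 to 0.032). None of these alternatives used the 2 tumor sets described below. Vehicle replicates 1 and 3 averaged 70.7 CPM of *Sufu* in Node B-like cells. The other vehicle tumors averaged 31.2 CPM (27.6 to 35.9), beside 4.19 to 29.9 CPM in WT. In CGNP-like cells these vehicle averages were 65.4 and 29.4 CPM. It did not pass in Node A-like (0.57, adjusted p 0.183, but called without a count filter at 0.73, 0.0308), Node C-like (0.39, 0.371) or Node D-like cells (0.32, 0.555). The background of called genes was 29.6% for Node C-like cells, with 27.2% for Node D-like cells.

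*Gli3* was 9.68, 7.99, 4.73, 11.7 and 9.78 CPM in WT CGNP-like cells and 4.15, 3.38, 5.48, 6.29 and 6.25 CPM in vehicle tumors. Only WT replicate 3 lay within the vehicle range. The log2 fold change was -0.89 (SE 0.31, 95% interval -1.54 to -0.24, edgeR adjusted p 0.0267). The call ended without WT replicate 1 (-0.86, adjusted p 0.0547), 4 (-0.73, 0.101) or 5 (-0.86, 0.0508), and without vehicle replicate 1 (-0.79, 0.0589) or 2 (-0.74, 0.0724), and also without a count filter (-0.69, 0.134) and with the replicate block (-0.89, 0.0502). It was also called in Node A-like cells (-1.09, SE 0.37, adjusted p 0.0261). That call ended without WT replicate 4 (-0.73, 0.178), without a count filter (-0.90, 0.0869), with the replicate block (-0.97, 0.0701) and at a resolution of 1.2 (-0.86, 0.0761), and only 5 of the 10 fits without 1 animal kept enough *Gli3* counts to test it. The difference missed the threshold in Node B-like cells (-1.13, 0.0888), where it was called with cells of at least 1000 UMIs (-1.37, 0.043) and at resolutions of 0.6 (-1.16, 0.0359) and 1.2 (-1.505, 0.0163).

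*Gli2* in CGNP-like cells averaged 30.5 ± 8.48 CPM in WT and 28.1 ± 10.9 CPM in vehicle tumors (log2 fold change -0.21, 95% interval -0.75 to 0.33, edgeR adjusted p 0.521). *Smo* averaged 23.3 ± 4.78 and 24.3 ± 5.94 CPM (log2 fold change -0.01, 95% interval -0.48 to 0.46, adjusted p 0.9754). Their ranges overlapped. These intervals leave room for differences that the data cannot resolve.

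Among 40 tested genes of a wider Hedgehog list, 20 were higher in vehicle CGNP-like cells and 0 lower, against 21.3% and 23.3% of all genes. All 5 receptors and membrane inhibitors tested were higher, as were 8 of 10 targets and 7 of 24 transduction genes. *Hhip*, a decoy receptor for SHH, was higher by 4.38 on the log2 scale, *Ptch1* by 1.53, the Wnt antagonist *Sfrp1* by 1.83 and *Mycn*, a driver of CGNP proliferation, by 0.86, all called. On this scale the difference of *Gli1* was smaller than those of *Ptch1* and *Hhip*. The list was chosen with earlier results of these data known, so its counts beside all genes are a description.

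The share of CGNP-like cells with a *Gli1* UMI gave the same direction. With each cell thinned to 500 UMIs (the share expected over all draws) it was 1.25% ± 0.152 in WT and 3.13% ± 1.07 in vehicle tumors (exact permutation test, 2-sided, p = 0.00794, the smallest that 5 against 5 allows). The share of *Sufu* was 1.19% and 2.25% (exact permutation p = 0.0317). This unadjusted p was above 0.05 when any 1 of the 5 WT animals was left out (exact permutation p = 0.0714 to 0.0952, differences of 1.004 to 1.126 points). The share of *Gli3* was 0.335% and 0.199% (exact permutation p = 0.0476). Its unadjusted p was above 0.05 unthinned, and without WT replicate 1, 4 or 5 or vehicle replicate 1, 2, 3 or 5. Differences were -0.1066 to -0.1437 points when 1 of these animals was left out. For *Gli2* (1.32% and 1.27%) and *Smo* (1.09% in both) the unadjusted p was also above 0.05. These p-values are not adjusted over the 5 genes or for the 50 share comparisons made, so no call is read from them. Without thinning, *Gli1* was found in 5.02% of WT and 12.4% of vehicle CGNP-like cells, with median UMIs of 1038.5 to 1595 and 1137 to 2638. In microglia-like cells the thinned share of *Gli1* was 0% in WT and 1.08% in vehicle tumors, from 0 and 10 UMIs. That of *Sufu* was 0.172% and 0.763%, from 2 and 6 UMIs, with the higher value in vehicle tumors as in CGNP-like cells, and the part of free RNA in the *Sufu* difference was not tested. No *Gli3* UMI was counted there in either group.

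The treated tumors were then compared with the vehicle tumors to ask what vismodegib changed. None of the 5 genes passed the test in CGNP-like cells, where 13.1% of 12429 genes did, nor in all cells (background 13.9%), Node A-like (2.24%) or Node B-like cells (3.1%). Only *Sufu* had enough counts to be tested in Node C-like (background 0.554%) and Node D-like cells (0.255%), and it did not pass. At an unadjusted p under 0.05, *Gli3* in all cells, CGNP-like, Node A-like and Node B-like cells and *Gli2* in Node A-like and Node B-like cells would have passed. The median log2 fold change of the 5 was 0.22 in CGNP-like cells, beside 0.0025 over all genes tested. The plot of log2 fold changes sets both comparisons side by side, which share the vehicle tumors.

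**Figure D3:**
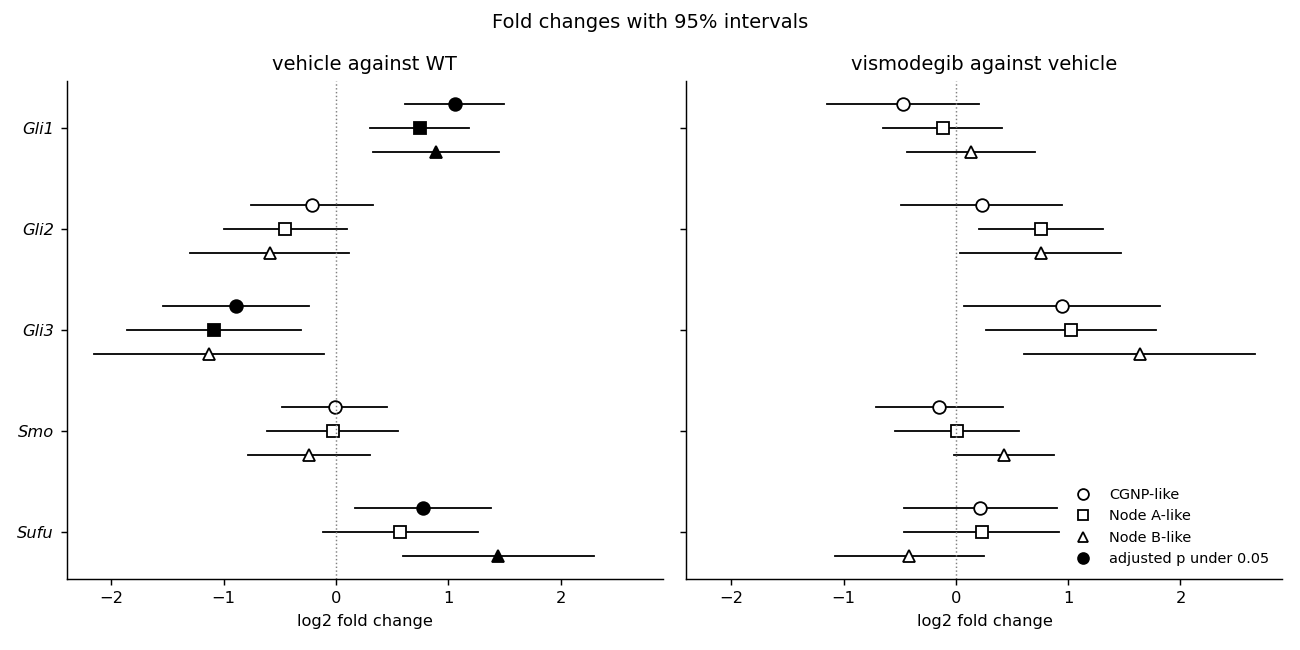
Log2 fold change (horizontal axis) of each gene with its 95% interval, vehicle against WT and vismodegib against vehicle, in CGNP-like (circle), Node A-like (square) and Node B-like (triangle) cells, filled where the adjusted p was under 0.05. *Gli1* was filled in all 3 against WT, and no symbol was filled for vismodegib.

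*Gli1* in CGNP-like cells was 69.4, 93.9, 47.1, 27.6 and 28.2 CPM in vismodegib tumors, against 47.7 to 106.8 CPM in vehicle tumors. Vismodegib replicates 4 and 5 were far below every vehicle tumor, replicate 3 was just below the lowest of them, and replicates 1 and 2 were within the vehicle range. The fold change on the log2 scale was -0.47 (SE 0.31, 95% interval -1.15 to 0.20, edgeR adjusted p 0.389). It ran from -0.78 (without vismodegib replicate 2) to -0.30 (without vismodegib replicate 4) when 1 animal was left out, with no call. Within Node A-like cells it was -0.12 (SE 0.25, 95% interval -0.65 to 0.41, adjusted p 0.927), and within Node B-like cells 0.14 (SE 0.27, 95% interval -0.43 to 0.70, adjusted p 0.866). The ranges of both groups overlapped in both classes.

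The mix of classes moved with treatment. Node D-like cells made up 8.78% ± 2.19 of cells in vehicle and 34.1% ± 11.7 in vismodegib tumors, and Node B-like cells 49.3% ± 7.48 and 23.7% ± 9.58. Over all cells, *Gli1* averaged 69.8 CPM in vehicle and 48.7 CPM in vismodegib tumors (exact permutation p = 0.214). When every tumor was given the mean class shares of the vehicle group while keeping its own level in each class, the averages were 69.9 and 69.7 CPM (log2 ratio -0.0042, exact permutation p = 0.992). The vismodegib tumors had 61.7, 89.5, 43.7, 24.2 and 24.5 CPM as measured and 84.7, 113.8, 58.6, 43.6 and 47.9 CPM with the shares held. The plot of levels with held shares gives each tumor.

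**Figure D4:**
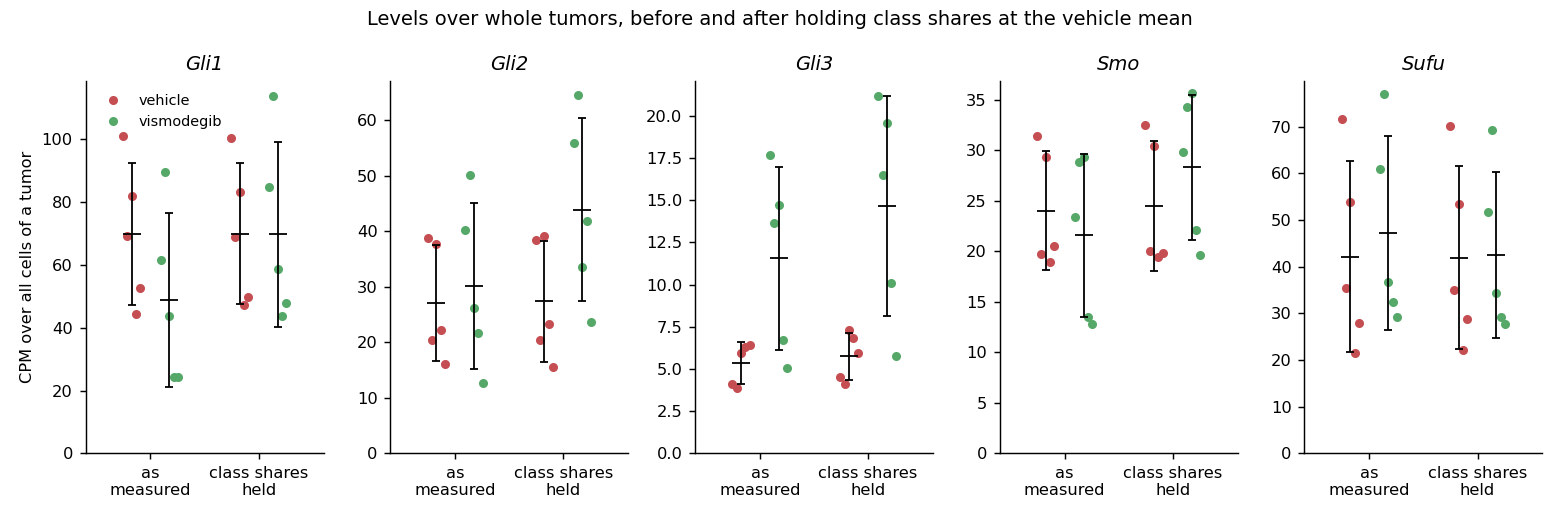
CPM over all cells of each tumor as measured and with class shares held at the vehicle mean, with 1 point per tumor for vehicle and vismodegib in 5 panels. The *Gli1* averages were 69.8 and 48.7 CPM as measured and 69.9 and 69.7 CPM with shares held, while *Gli3* with shares held was above every vehicle tumor in 4 of 5 vismodegib tumors.

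The tumors also divide into 2 sets that were found in an earlier account of these data and that no label names: vehicle replicates 1 and 3 with vismodegib replicates 1, 2 and 3, and the other 5 tumors. *Gli1* in CGNP-like cells averaged 95.6 CPM in vehicle and 70.1 CPM in vismodegib tumors of the first set, and 58.3 and 27.9 CPM in the other. With class shares held, *Gli1* over all cells averaged 91.9 and 85.7 CPM in the first set and 55.3 and 45.8 CPM in the other. Serial numbers in the labels were also split into early ones (replicates 1, 2 and 3 of both groups) and late ones (the others). The labels do not give this split, and it differs from the sets only in vehicle replicate 2. Within the early serial numbers these averages were 84.2 and 85.7 CPM, and within the late ones 48.5 and 45.8 CPM. With the set as a block the log2 fold change was -0.73 (edgeR adjusted p 0.0144), and over the alternatives adjusted p ran from 0.0144 to 0.599. Since the sets were found in these same data, p-values with the set block may be too small and are not read as support. With a block for early and late serial numbers it was -0.54 (edgeR adjusted p 0.0601). In all cells, both blocks gave a call (set -0.86, adjusted p 0.00882, and serial number -0.65, 0.0299, with a range of 0.00882 to 0.491). As the serial number split nearly matches the sets, its call is not read as separate support. Within Node A-like and B-like cells no alternative gave a call for *Gli1*, with lowest adjusted p of 0.577 and 0.665.

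The share of CGNP-like cells with a *Gli1* UMI, thinned to 500 UMIs, was 3.13% ± 1.07 in vehicle and 1.96% ± 1.27 in vismodegib tumors (exact permutation test, 2-sided, p = 0.151). It was 4.56% and 4.18% in Node A-like cells and 4.05% and 4.03% in Node B-like cells. Without thinning, the share in CGNP-like cells was 12.4% and 8.26% (exact permutation p = 0.0238, not adjusted).

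*Gli3* averaged higher in vismodegib tumors without passing the test. In Node B-like cells it was 3.61, 2.14, 9.92, 10.3 and 6.54 CPM in vehicle and 29.2, 21.9, 29.7, 15.9 and 4.98 CPM in vismodegib tumors. All vismodegib tumors except replicate 5 lay above every vehicle tumor. The log2 fold change was 1.64 (SE 0.48, 95% interval 0.61 to 2.67, edgeR adjusted p 0.0881). It was called by DESeq2 (1.64, adjusted p 0.0208), without a count filter (1.59, 0.0161), at a clustering resolution of 1.2 (1.94, 0.0432) and without vismodegib replicate 5 (1.92, 0.0291), with adjusted p over all alternatives from 0.0161 to 0.201.

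In CGNP-like cells *Gli3* was 16.1, 12.4, 15.1, 5.13 and 3.56 CPM in vismodegib tumors, against 3.38 to 6.29 in vehicle tumors. On the log2 scale the change was 0.94 (SE 0.41, 95% interval 0.07 to 1.81, edgeR adjusted p 0.162), and in Node A-like cells 1.02 (SE 0.36, adjusted p 0.207). In CGNP-like cells *Gli3* averaged 4.81 CPM in vehicle and 14.6 CPM in vismodegib tumors of the first set, and 5.31 and 4.35 CPM in the other. In the other set it was 6.62 and 8.43 CPM in Node A-like and 6.34 and 10.46 CPM in Node B-like cells. In all cells it was 1.01 (adjusted p 0.0734), called by DESeq2 (1.00, 0.0381) and without vismodegib replicate 5 (1.22, 0.0291), with a range of 0.0291 to 0.168. With class shares held, *Gli3* averaged 5.74 and 14.6 CPM (log2 ratio 1.35, exact permutation p = 0.0317). Adjusted over the 5 genes, this permutation p was 0.159 and did not pass. The held averages were 5.92 and 19.1 CPM in the first set (log2 ratio 1.69) and 5.62 and 7.94 CPM in the other (0.50), and 5.31 and 19.1 CPM (1.85) and 6.39 and 7.94 CPM (0.31) for early and late serial numbers. The unadjusted permutation p was 0.0556 to 0.0714 without any 1 of the vehicle animals, with log2 ratios of 1.25 to 1.45.

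*Gli2* in Node A-like cells was 48.1, 27.6, 34.1, 30.3 and 19.9 CPM in vehicle and 74.3, 73.6, 42.9, 48.0 and 32.5 CPM in vismodegib tumors. Vismodegib replicates 1 and 2 lay above every vehicle tumor, and the other 3 within the vehicle range. Its log2 fold change was 0.76 (SE 0.26, 95% interval 0.21 to 1.31, edgeR adjusted p 0.195). It was 0.76 in Node B-like cells (SE 0.34, adjusted p 0.282) and 0.23 in CGNP-like cells as a whole (SE 0.33, 95% interval -0.49 to 0.94, adjusted p 0.722). Within the sets, Node A-like *Gli2* averaged 41.1 and 63.6 CPM in the first and 25.9 and 40.3 CPM in the other.

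*Smo*, the target of the drug, averaged 24.3 ± 5.94 CPM in vehicle and 22.3 ± 8.54 CPM in vismodegib CGNP-like cells (log2 fold change -0.15, 95% interval -0.71 to 0.42, edgeR adjusted p 0.774). In Node A-like cells the log2 fold change was 0.01 (95% interval -0.54 to 0.57), and in Node B-like cells 0.43 (SE 0.21, adjusted p 0.341). In astrocyte-like cells *Smo* was 66.1, 52.7, 44.3, 32.7 and 21.2 CPM in vehicle and 9.37, 11.5, 32.7, 22.4 and 20.7 CPM in vismodegib tumors. These rest on 19 and 28 UMIs and were below the count minimum of the test.

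*Sufu* in CGNP-like cells averaged 43.8 ± 21.6 CPM in vehicle and 50.6 ± 20.9 CPM in vismodegib tumors (log2 fold change 0.22, 95% interval -0.47 to 0.90, edgeR adjusted p 0.721). Without 1 animal it ran from 0.0077 (vismodegib replicate 2) to 0.48 (vehicle replicate 1), with no call. In Node D-like cells it was 66.2, 37.3, 41.9, 18.4 and 33.6 CPM in vehicle and 111.3, 99.3, 47.2, 38.5 and 35.9 CPM in vismodegib tumors. Vismodegib replicates 1 and 2 were above all vehicle tumors and the others overlapped them. The log2 fold change was 0.73 (SE 0.37, edgeR adjusted p 0.579), beside 0.48 in Node C-like (adjusted p 0.734) and -0.41 in Node B-like cells (adjusted p 0.584). Node D-like cells supplied 5.27% ± 0.638 of *Sufu* UMIs in vehicle and 33.0% ± 9.05 in vismodegib tumors.

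Other genes of the pathway did change. Of 40 tested in CGNP-like cells, 11 fell with vismodegib and 0 rose, against 4.67% and 8.42% of all genes. The fall took in 4 of 5 receptors and membrane inhibitors (among them *Ptch1*, *Hhip* and the co-receptor gene *Gas1*) and 7 of 10 targets (*Sfrp1*, *Mycn*, *Ccnd1*, *Atoh1*, *Hes1*, *Cdk6* and *Rab34*). None of 24 transduction genes passed, and neither did the 1 ligand gene tested. *Hhip* was 38.6, 40.2, 35.8, 26.6 and 46.3 CPM in vehicle and 3.80, 5.49, 6.86, 5.13 and 7.25 CPM in vismodegib CGNP-like cells. The groups did not overlap (log2 fold change -2.68, SE 0.21, edgeR adjusted p 2.16e-05). *Ptch1* fell by 1.43 on the log2 scale (adjusted p 0.00102), *Sfrp1* by 0.97 (0.00126) and *Mycn* by 0.95 (0.00578). The list was chosen with earlier results of these data known, so its counts beside all genes are a description. Class shares were not held for these genes, and the part of the class mix in their falls was not tested.

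Within single node classes fewer pathway genes passed. In Node A-like cells 5 of 35 fell (among them *Hhip*, *Gas1*, *Ccnd1* and *Hes1*), and in Node B-like cells 6 of 37 (among them *Ptch1*, *Hhip*, *Ccnd1*, *Hes1* and the ciliary motor gene *Kif3a*), against 1.57% and 1.97% of all genes. *Hhip* fell by 2.54 (edgeR adjusted p 6.54e-05) and 1.67 (0.00177) on the log2 scale. *Sfrp1* (-0.40 and -0.50) and *Mycn* (-0.41 and -0.54) did not pass in either class. In Node C-like cells 3 of 29 fell and in Node D-like cells 3 of 24, against 0.554% and 0.255% of all genes called in either direction. In both, these were *Ccnd1* (-1.84 and -2.03), *Sfrp1* (-1.05 and -1.28) and *Mycn* (-1.03 and -1.23). In Node A-like and B-like cells the log2 fold changes of *Gli1* were -0.12 and 0.14; the difference between *Gli1* and these genes was not tested.

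Whether the change with vismodegib differed by stage was tested with an interaction term over 10572 genes, in 15 comparisons of the 5 genes. For *Gli1*, the change in Node C-like cells differed from that in Node A-like cells by -1.83 on the log2 scale (SE 0.46, edgeR adjusted p 0.0132, background 2.19%). It rested on 46 *Gli1* UMIs in vehicle and 10 in vismodegib Node C-like cells, levels of 7.24 to 12.3 and 0.64 to 4.94 CPM whose means were below those of microglia-like cells. The call ended without vehicle replicate 5 (-1.73, adjusted p 0.0624) and without vismodegib replicate 4 (-1.44, 0.162), with a range of 0.0118 to 0.162. The change of *Sufu* in Node B-like minus Node A-like cells was -0.60 (SE 0.19, adjusted p 0.0727, background 2.72%), and no other interaction passed, including those of Node D-like cells (background 4.44%).

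The balance among the Gli genes was compared within each animal, as a description chosen after values were seen. In CGNP-like cells there were 0.70 to 1.48 *Gli1* UMIs per *Gli2* UMI in WT, 2.10 to 3.39 in vehicle and 1.19 to 1.95 in vismodegib tumors. All vehicle tumors lay above all vismodegib tumors, while vismodegib tumors overlapped WT. *Gli1* per *Gli3* was 2.61 to 5.4 in WT, 7.58 to 25.7 in vehicle and 3.12 to 7.93 in vismodegib tumors. The plot of Gli ratios shows these values.

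**Figure D5:**
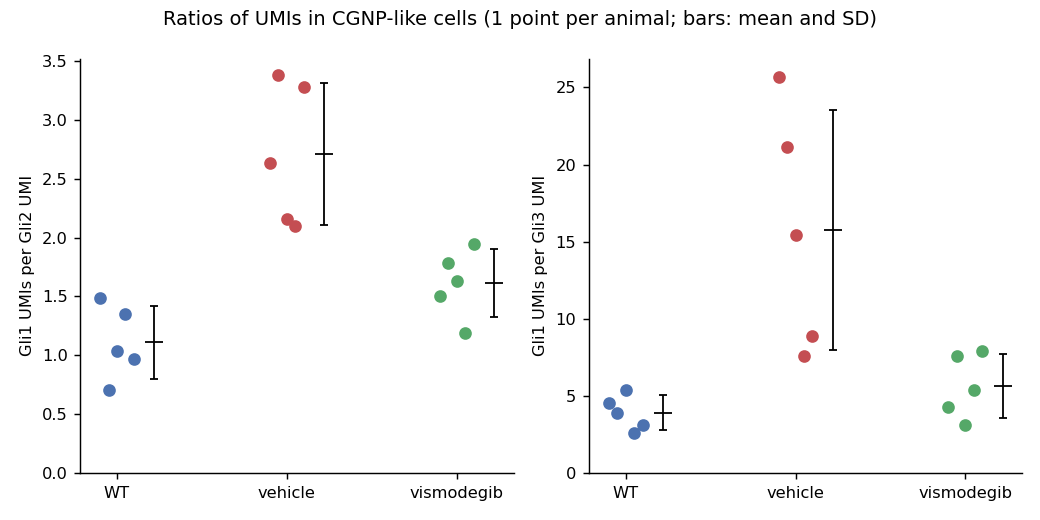
*Gli1* UMIs per *Gli2* UMI (left) and per *Gli3* UMI (right) in CGNP-like cells, with 1 point per animal for WT, vehicle and vismodegib. The vehicle tumors lay at 2.10 to 3.39 *Gli1* per *Gli2*, above the WT (0.70 to 1.48) and vismodegib (1.19 to 1.95) animals.

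Cells with a *Gli1* UMI were then set beside cells without one, among Node A-like and B-like cells of the same tumor, with *Gli1* itself left out of the totals. Positive cells were deeper, with median UMIs per tumor of 1521.5 to 5920 against 1188.5 to 3299. Both classes were pooled, and in vehicle tumors Node A-like cells were deeper than Node B-like cells (medians 2122 to 4764 against 1128 to 2657). The part of the class mix in the ratios was not tested. To each level 10 CPM was added before the log2 ratio was taken. This draws the ratios of genes with low levels toward 0, so their sizes are not compared between genes. On average over 10 tumors, this log2 ratio of positive to negative cells was 0.29 ± 0.298 (SD) for *Gli3*, above 0 in 9 tumors, 0.16 ± 0.181 for *Smo* (8 tumors), 0.11 ± 0.253 for *Gli2* (6 tumors) and -0.12 ± 0.294 for *Sufu* (3 tumors). With cells thinned to 500 UMIs the ratios were 0.25, 0.11, 0.05 and -0.19. Of the other pathway genes, *Hhip* had 0.44 (9 tumors), *Ptch1* 0.25 (9 tumors), *Mycn* 0.12 (6 tumors) and *Sfrp1* 0.094 (8 tumors). *Sfrp1* averaged -0.0047 in vehicle and 0.19 in vismodegib tumors (exact permutation p = 0.0159, not adjusted). For *Gli2*, *Gli3*, *Smo* and *Sufu* these ratios did not differ detectably between treatments (exact permutation p = 0.857, 0.944, 0.937 and 0.992).

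The genes most like each of the 5 in pattern were found by Pearson r over 29 profiles, each the mean of 1 class in 1 group, among 8261 genes on the log2(CPM + 10) scale. The profiles share libraries and depth, and r is given as a description. *Gli1* was most like *Tmem107* (0.905), *Nup37* (0.892) and *Pola2* (0.87), and its r with *Gli2* was 0.873. For *Gli2* the closest were *Gli1*, *Rpa1* (0.867) and *Arl6ip6* (0.866), and for *Gli3* they were *Bmpr1a* (0.895), *Prex2* (0.866) and *Lrig1* (0.837). *Sufu* was closest to *Sox11* (0.834), *Nhlh2* (0.817) and *Nfib* (0.814). For *Smo* the closest were *Rad54l* (0.647), *3110082I17Rik* (0.645) and *Elof1* (0.642), and its r with *Gli2*, whose mean level lay below the minimum of 20 CPM, was higher at 0.705.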

How the data were processed

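The authors made Drop-seq libraries from dissociated tissue, 5 animals per group, and deposited 1 table of raw counts (UMIs per gene and cell) per animal. The submitters' processing notes name bcl2fastq 2.18, STAR 5.4b, Seurat 2.3.0 and the builds mm10 and hg19; tumor runs carried human HEK cells as a spike-in. Cells with at least 500 UMIs and 500 genes and no more than 5 SD above the median of their animal were kept, which was also the only treatment of doublets. WT and tumor cells were clustered separately (Louvain, resolution 0.8) and named from marker lists. The 5 genes, the Hedgehog list, the transgenes and globin genes took no part in either. Globin genes were held out of clustering and naming after globin-led clusters were seen. Counts were summed per animal and class, with at least 5 cells, and tested with edgeR 4.0.16 (R 4.3.3; quasi-likelihood, TMM, filterByExpr), with Benjamini-Hochberg adjustment over all genes tested and a threshold of 0.05. Single values used 2-sided exact permutation tests over animals (scipy 1.17.1; 252 assignments, smallest p 0.00794). The step was tested on simulated data.

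The 5 genes, the Hedgehog list, the single pathway genes (*Ptch1*, *Hhip*, *Sfrp1* and *Mycn*) and the likeness rule (the 3 highest r among genes with at least 20 CPM) were chosen with earlier results of these data known. Alternatives covered DESeq2 1.42.0, scaling, filters, depth minimums, resolution, blocks and leaving out each animal. The alternatives of the interaction were chosen after seeing the data. Some items are not reported here. Libraries held 2310474 to 17708677 UMIs. A floor is 3 UMIs, and floors cover counting error only. The labels name separate animals as replicates.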

Additional observations from a re-analysis of the deposited data

Results flagged for a closer look

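*Gli2* in WT Node B-like cells stood apart in 1 animal: WT replicate 2 had 85.05 CPM, and the nearest of the other 4 had 43.4 CPM. Its gap was 0.809 of the range of the group, above Dixon's critical value of 0.71 for 5 samples. It was the only one of 51 groups of animals examined to do so, and chance marks about 1 in 20 groups.

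An interaction term passed the test for *Gli1*: its change with vismodegib in Node C-like minus that in Node A-like cells was -1.827 on the log2 scale (edgeR adjusted p 0.0132). It no longer passed without vehicle replicate 5 (adjusted p 0.0624) or vismodegib replicate 4 (0.162). The Node C-like counts were 46 UMIs in vehicle and 10 in vismodegib tumors, with mean levels of 9.997 and 3.46 CPM, below those of microglia-like cells (24.9 and 10.2 CPM), so no stage difference is read from it. The part of free RNA in it was not tested.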

How the results depend on the processing

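Over 1479 alternatives of 90 results, 1311 kept direction and side of the threshold, 76 reversed, 39 lost a call, 17 gained one and 36 moved; the cause was not tested. Same-numbered vehicle and vismodegib tumors had adjacent serial numbers in the labels, and the main tests did not pair them. Their r was -0.334 to 0.403, which cannot show whether they were paired. The replicate block ended the WT call of *Gli3* in CGNP-like cells (-0.8899) and Node A-like cells (-0.9728). With vismodegib it gave -0.56 for *Gli1*. Without a filter *Gli3* against WT was -0.6894. *Smo* against WT changed sign in CGNP-like cells with library totals (0.07965) and no filter (0.1891), in Node A-like cells with library totals (0.08263), no filter (0.1409) and resolutions of 0.6 (0.006194) and 1.2 (0.07636), and in Node B-like cells without a filter (0.001921). With vismodegib, the set block gave -0.7338 for *Gli1* in CGNP-like and -0.04445 in Node B-like cells, -0.094 for *Gli2* and -0.009574 for *Sufu* in all cells, and -0.07127 for *Smo* in Node A-like cells. In Node A-like cells *Gli1* was 0.01941 and 0.03713 at resolutions of 0.6 and 1.2, and *Smo* -0.0118 without a filter. Unthinned shares differed by 0.2521 (*Gli2*), -0.4125 (*Gli3*) and 0.8316 points (*Smo*, 0.03342 at 1000 UMIs) against WT, and with vismodegib by -4.097 (*Gli1*) and 0.1272 (*Gli2*, 0.3168 at 1000 UMIs). *Gli3* with shares held at the vismodegib mean was 0.9644.

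Leaving out 1 animal gave these ranges. Against WT: *Gli3* -1.001 to -0.7273, *Sufu* 0.5514 to 0.9637 and *Smo* -0.1429 to 0.08943 in CGNP-like cells, *Smo* -0.2367 to 0.08805 in Node A-like and -0.01585 to 0.2219 in all cells. With vismodegib: *Gli1* -0.3883 to 0.02591 in Node A-like and -0.07567 to 0.274 in Node B-like cells, *Gli2* -0.1473 to 0.3291 in all and -0.002408 to 0.4212 in CGNP-like cells, *Smo* -0.1538 to 0.1613 in Node A-like and *Sufu* -0.1067 to 0.3807 in all cells. Shares held: *Gli1* -0.2524 to 0.1627, *Gli3* 1.178 to 1.552 and *Sufu* -0.2291 to 0.2858. Interaction: *Gli1* -2.012 to -1.437 (Node C-like) and -0.1034 to 0.5467 (Node D-like), *Gli2* -0.01564 to 0.2451 (Node B-like) and *Gli3* -0.335 to 0.85 (Node C-like). Shares of cells in points: against WT *Gli2* -0.2052 to 0.07137, *Gli3* -0.1674 to -0.1066, *Smo* -0.09101 to 0.073 and *Sufu* 0.6894 to 1.331; with vismodegib *Gli2* -0.2859 to 0.1577 and *Sufu* -0.0009003 to 0.7286.

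Counts of all genes called moved by over 1.5 times. Against WT, no filter gave 5929, 5060, 3671 and 2491 in Node A-like to D-like cells. With vismodegib, Node A-like cells (222) gave 391 (no filter), 337 (serial block) and 403 (set block), Node B-like (315) 549 (DESeq2), 523 and 687 (blocks) and 200 to 322 without 1 animal. Node C-like (46) gave 86 (DESeq2), 168 (no filter), 97 and 128 (blocks), 19 (resolution 0.6) and 10 to 49 without 1 animal. Node D-like (18) gave 76 (DESeq2), 173 (no filter), 35 (replicate block), 79 and 95 (blocks), 31 (1000 UMIs), 39 (resolution 0.6) and 4 to 48 without 1 animal. None of the 5 genes could be tested in the classes outside the lineage. These held few cells, such as 221 astrocyte-like and 196 microglia-like cells in vehicle tumors, beside 17183 CGNP-like cells.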

Other observations

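Cre, which the *Atoh1* promoter drives in these tumors, was counted at 1980 ± 640 CPM in vehicle and 889 ± 183 CPM in vismodegib tumors over all cells (log2 fold change -1.18, edgeR adjusted p 0.00627). In CGNP-like cells it fell by 1.05 (adjusted p 0.0127), while SmoM2/EYFP in the same cells averaged 30.3 ± 4.88 and 25.6 ± 6.30 CPM and did not pass. Within single node classes Cre did not pass either, with log2 fold changes of -0.30 for Node A-like cells (edgeR adjusted p 0.773), -0.90 for Node B-like cells (0.0849), and -0.78 (0.364) and -0.79 (0.379) for the Node C-like and D-like ones. Cre was also counted in microglia-like cells, at 415 CPM in vehicle and 92.5 CPM in vismodegib tumors.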
